A study of Mus musculus with 6 samples.

Results

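Imprinted genes of skeletal muscle were compared between injured and non-injured quadriceps, the muscle group that extends the knee. The set holds 8 genes: the noncoding RNAs Meg3, Rian, Mirg and H19, and the protein-coding genes Igf2, Cdkn1c, Peg3 and Grb10. They were chosen by name as maternally or paternally expressed growth genes, and all 8 are among the 20015 genes of the deposited count table. Of these, 7 were among the 16095 genes tested and 1, Mirg, had too few counts for the test. RNA was sequenced in 6 libraries. In 3 libraries (A, B and C) the muscle came from limbs with an injured anterior cruciate ligament (ACL), a ligament that steadies the knee, before any reconstruction. The other 3 libraries, also lettered A, B and C, came from quadriceps without ACL injury. The organism label is Mus musculus and the gene models are those of mouse, although the series text speaks of human tissue, so the values were read as mouse. The name of the table calls the RNA myonuclear, while the extraction protocol describes total RNA taken with TRIzol and a column kit, so it is not settled how far nuclear RNA was favoured. The labels give no strain, age or time since injury. They also leave unsaid whether a group's libraries are separate animals, and p-values here therefore measure library-to-library spread that could be purely technical.

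Imprinting rests on DNA methylation laid down in the germ line, after which only 1 parental copy of a gene stays active. Genes expressed from the maternal copy, such as H19, Meg3, Cdkn1c and, in most tissues, Grb10, tend to restrain growth, while paternally expressed genes such as Igf2 tend to promote it. In adult muscle H19 stays abundant, and Meg3, Rian and Mirg come from a single stretch of maternally expressed noncoding RNA between the paternally expressed genes Dlk1 and Dio3. Counts per gene do not say from which parental copy an RNA came, so imprinting itself was not measured here.

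Several of these RNAs are carriers of small RNAs, and a few of these are shown because nearly all lie in the noncoding members. In the RefSeq table for GRCm38.p6, 21 miRNA genes with 39 mature sequences lie inside the 8 genes on the same strand. Mirg holds 14 of the 21, Rian 3, Meg3 2, H19 1 and Igf2 1, and Cdkn1c, Peg3 and Grb10 hold none. Capitals mark the seed, bases 2 to 8, which pairs with target mRNAs.
miR-770-5p: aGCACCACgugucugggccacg
miR-370-3p: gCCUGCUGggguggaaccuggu
miR-134-5p: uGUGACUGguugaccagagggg
miR-410-3p: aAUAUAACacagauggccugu
miR-453: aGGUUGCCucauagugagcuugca
miR-496a-5p: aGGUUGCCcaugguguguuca
miR-675-5p: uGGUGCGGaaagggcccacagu
miR-675-3p: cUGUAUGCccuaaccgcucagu
miR-483-3p: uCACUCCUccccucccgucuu
The first of these lies in an exon of Meg3, miR-370-3p in an intron of Rian, and the next 4 in Mirg. Both arms of miR-675 come from an exon of H19, and miR-483-3p lies in an intron of Igf2. Among the 39 mature sequences there are 38 distinct seeds, and miR-453 and miR-496a-5p, both of Mirg, are the only pair that share 1. Rian also spans 13 small nucleolar RNA genes on its own strand. None of these miRNA or snoRNA genes has a row among those analysed here, so what follows concerns the host transcripts only.

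Of the noncoding members Meg3, Rian and H19 stood higher in injured muscle, Mirg was too sparse to tell, and the coding members were not told apart between the groups. Meg3 averaged 2.0-fold higher, Rian 1.83-fold higher and H19 1.48-fold higher in injured quadriceps, and in each of the 3 every injured library lay above every non-injured library. Igf2, Cdkn1c, Peg3 and Grb10 overlapped between the groups. By edgeR's quasi-likelihood test with adjustment over all genes, 0 of the 7 tested members passed an adjusted p of 0.05, in a comparison that called 0.746% of all genes. At an unadjusted p under 0.05, 3 of 7 passed (Meg3, Rian and H19), against 15.4% of all genes. With DESeq2 1 passed, Meg3 (adjusted p 0.0351), where that tool called 2.03% of all genes, and with limma-voom 0 passed, where 0.367% of all genes were called. The letters were taken to pair the libraries across the groups, although the labels do not say so, and blocked calls depend on that choice. With the letter as a block in the fit the same 3 of 7 passed, all higher. That fit called 5.86% of all genes in either direction and 3.21% of all genes as higher. Groups that do not overlap, with injured higher, were found in 3 of the 7 tested members and in 11.9% of all tested genes. No tested member had all injured libraries below all non-injured ones, which held for 9.57% of all genes.

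**Figure D1:**
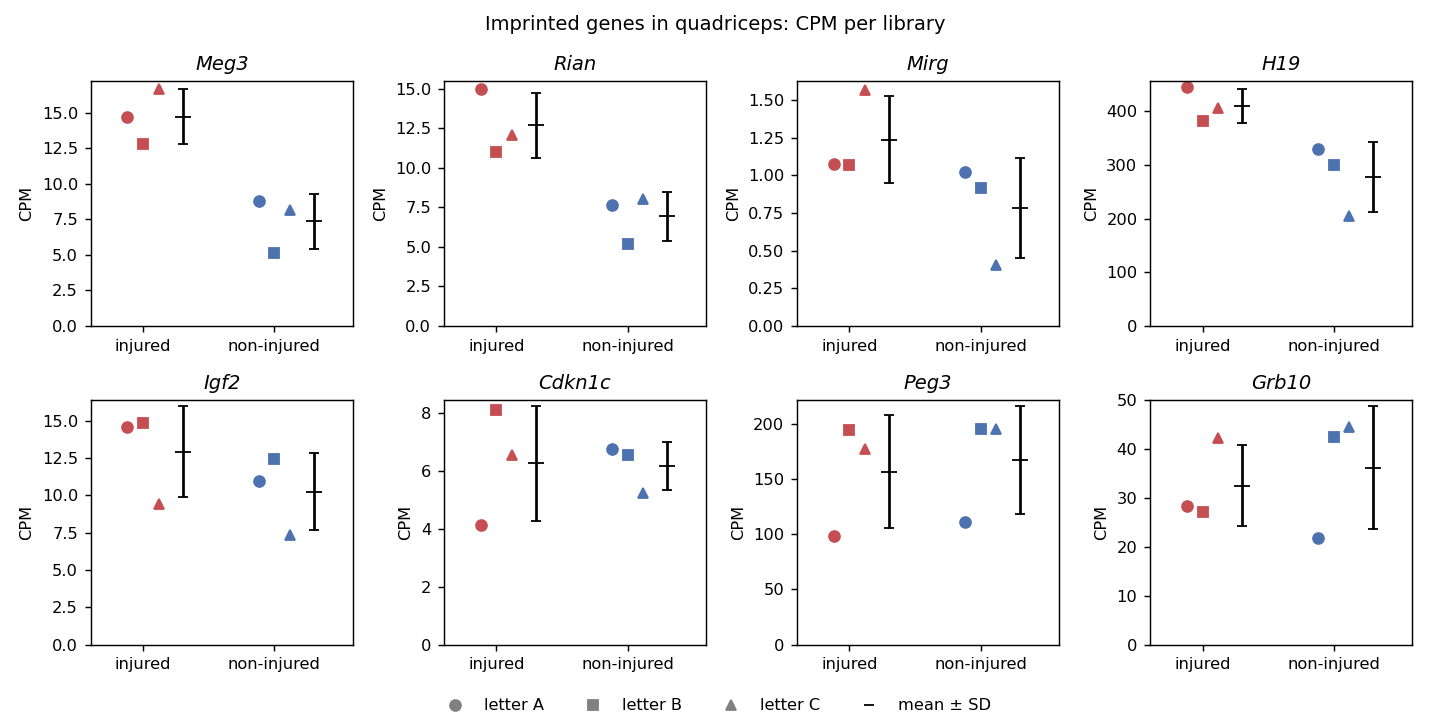
Level in CPM (counts scaled to the library total; vertical axes, each starting at 0) of the 8 genes in injured (left, red) and non-injured (right, blue) libraries, with the letter of each library as the marker shape and mean ± SD (n = 3) in black. Meg3, Rian and H19 do not overlap between groups, while Cdkn1c, Peg3 and Grb10 do, and the letter A libraries of Peg3 are the lowest in both groups.

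Meg3 is a nuclear long noncoding RNA of mouse chromosome 12 (109541001 to 109571726, plus strand, mm10). In CPM, counts scaled to a common library total, it had 14.7, 12.8 and 16.7 in injured libraries A, B and C, against 8.80, 5.17 and 8.17 in non-injured libraries A, B and C. The lowest injured library thus lay well above the highest non-injured one, and the groups averaged 14.7 ± 1.91 and 7.38 ± 1.94 CPM (SD, n = 3 each). The log2 fold change was 1.0 ± 0.24 (SE), with an adjusted p of 0.0697 by edgeR and of 0.00819 with the letter block. Within letters A, B and C, injured over non-injured was 1.67, 2.49 and 2.04. Meg3 kept its blocked call whichever pair was left out (edgeR adjusted p 0.0172, 0.0173 and 0.0279 without A, B and C). In bulk muscle a change in the number of cells that make an RNA cannot be told apart from a change in RNA per cell.

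Rian, also called Meg8 and known as the host of a large snoRNA cluster, starts beyond Meg3 on the same strand (109603808 to 109661716). It had 15.0, 11 and 12.1 CPM in injured libraries, against 7.65, 5.17 and 8.03 CPM in non-injured libraries. As for Meg3, non-injured library B was the lowest of all 6, and the groups did not overlap. Rian gave a log2 fold change of 0.87 ± 0.24, with an adjusted p of 0.103 by edgeR and of 0.0222 with the letter block, and the letter pairs gave ratios of 1.96, 2.13 and 1.51. The block result rested in part on single pairs: without the letter A or B pair, Rian no longer passed (edgeR adjusted p 0.0997 and 0.0691).

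Mirg, the miRNA host at the far end of the same stretch (109729764 to 109749460), was at the limit of this depth. It had 7, 7 and 11 counts in injured libraries, against 8, 8 and 3 counts in non-injured libraries. After scaling these were 1.07, 1.07 and 1.57 CPM in injured libraries and 1.02, 0.918 and 0.402 CPM in non-injured libraries. The groups overlapped in counts and, by a narrow margin, not in CPM. Summed over libraries there were 25 counts in injured and 19 in non-injured muscle, a rate ratio of 1.57 with an exact 95% interval of 0.832 to 3.02 that covers counting error only. A difference of the size seen in Meg3 lies inside that interval, and so does no difference.

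The proportions of the 3 RNAs to each other were not told apart between the groups. Rian held 1.02, 0.856 and 0.724 counts per Meg3 count in injured libraries, against 0.874, 1.01 and 0.986 in non-injured libraries, a log2 difference of -0.16 (exact two-sided permutation test, p = 0.5, the smallest possible being 0.1). Mirg held 0.0727, 0.0832 and 0.0937 counts per Meg3 count in injured libraries, against 0.117, 0.180 and 0.0493 in non-injured libraries (log2 difference -0.29, exact p = 0.7). The proportion of Mirg was spread more widely in non-injured muscle, where 1 library had 3 counts, and leaving out non-injured library B turned the sign of its difference to 0.13. Across the 6 libraries, log2 CPM of Meg3 and Rian correlated at r = 0.96, a value that describes libraries falling into the same 2 groups.

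The rest of the Dlk1 to Dio3 interval was read from the table by position. It holds 11 rows, 3 of them members. Rtl1, a retrotransposon-derived gene expressed from the paternal copy, had 5.36, 5.04 and 5.98 CPM in injured libraries, against 2.17, 2.87 and 1.87 CPM in non-injured libraries. Its groups did not overlap, and the log2 fold change was 1.23 ± 0.33, with an adjusted p of 0.0996 by edgeR and 0.0452 with the letter block, a call lost without the A pair (0.119) or the C pair (0.177). Dlk1, which codes for a membrane protein of the Notch ligand family, had a log2 fold change of 0.41 ± 0.54 at a mean of 11.5 counts (edgeR, adjusted p = 0.771). Gm3379 gave 0.85 ± 0.61 (edgeR, adjusted p = 0.548). The other rows, Gm27528, Gm37899, B830012L14Rik, Gm34785 and Dio3os, had too few counts for the test. Dlk1, at the paternally expressed end, gave no call, while 7 of the 11 rows had no overlap between groups with injured higher. Low rows that were tested leaned the same way: of 3303 tested genes with a mean under 20 counts, 22.2% had this pattern. Of the rows without overlap here, Gm27528, Gm37899, Mirg and Dio3os were not tested, so that share does not cover them. Nor does it cover Meg3, Rian and Rtl1, with means of 78.6, 70 and 27.7 counts. The pattern was found in 9.17% of tested genes with a mean of 50 to 100 counts. For means of 20 to 50 counts the share was 14.4%.

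An antisense transcript from the maternal strand runs through Rtl1 and is cut into miRNAs that are fully complementary to Rtl1 mRNA. RefSeq places 6 such miRNA genes inside Rtl1 on the strand of Meg3, of which these mature forms are shown with the seed in capitals.
miR-431-5p: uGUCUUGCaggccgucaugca
miR-433-3p: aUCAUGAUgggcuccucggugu
miR-127-3p: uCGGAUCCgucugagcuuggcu
miR-434-3p: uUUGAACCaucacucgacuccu
miR-136-5p: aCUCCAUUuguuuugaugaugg
The sources used here do not state a strand setting for the counting, so reads from Rtl1 and from its antisense partner cannot be told apart. Relative to Meg3, the Rtl1 row held 0.363, 0.392 and 0.358 counts in injured libraries, against 0.248, 0.561 and 0.230 in non-injured libraries (exact permutation test, p = 0.5).

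**Figure D2:**
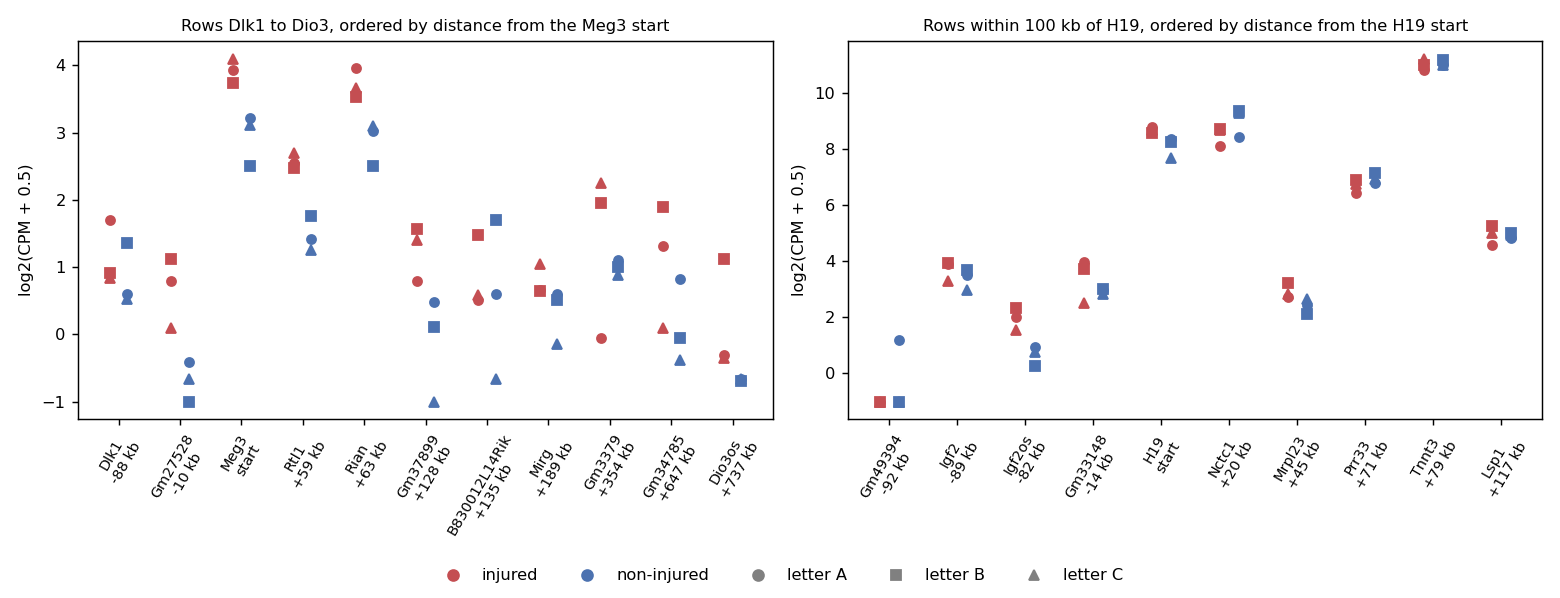
Level of every table row between Dlk1 and Dio3 (left) and within 100 kb of H19 (right), as log2(CPM + 0.5), in injured (red, left of each pair) and non-injured (blue) libraries, ordered by the distance of each start from that of Meg3 or H19; marker shapes give the letter. Red points lie above blue ones for Meg3, Rtl1 and Rian, and Nctc1 beside H19 runs the other way within each letter.

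The promoter of Meg3 is shown because the Meg3, Rtl1 and Rian rows all stood higher in injured muscle, and that of Peg3 because it is the only other promoter window of a member in the RefSeq table with the same 8-base motif. Both are from RefSeq on GRCm38.p6 and run from 250 bases before to 50 bases after the start: Meg3 at chr12:109540746-109541045, plus strand, and Peg3 at chr7:6730370-6730669, minus strand. Capitals mark matches on either strand to TGACGTCA (the full cAMP response element), TATAAA (the TATA box) and CCAAT.
Meg3: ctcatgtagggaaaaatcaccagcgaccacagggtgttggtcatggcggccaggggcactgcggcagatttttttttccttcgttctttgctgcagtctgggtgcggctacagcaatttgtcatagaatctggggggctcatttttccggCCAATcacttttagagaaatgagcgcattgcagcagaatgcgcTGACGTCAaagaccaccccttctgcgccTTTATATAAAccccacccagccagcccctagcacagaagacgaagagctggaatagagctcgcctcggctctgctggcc
Peg3: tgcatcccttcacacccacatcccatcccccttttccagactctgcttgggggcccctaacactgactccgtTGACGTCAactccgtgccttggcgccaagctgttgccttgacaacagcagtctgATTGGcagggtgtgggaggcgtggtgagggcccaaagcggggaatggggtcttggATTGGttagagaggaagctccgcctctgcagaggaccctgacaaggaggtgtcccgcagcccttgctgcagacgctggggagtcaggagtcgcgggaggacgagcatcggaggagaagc
In the Meg3 promoter TGACGTCA begins 57 bases before the start and CCAAT 100 bases before it. Matches to TATAAA begin 29 bases (reverse strand) and 25 bases (forward strand) before the start and overlap each other. In the Peg3 promoter, TGACGTCA begins 178 bases before the start, and CCAAT matches on the reverse strand stand 124 and 69 bases before it. Of 32817 promoters of this length in the table, 1.79% hold TGACGTCA, 13.6% TATAAA and 37.4% CCAAT. Meg3 has another promoter window, at chr12:109545148-109545447, which holds none of these motifs. The promoter windows of Rian, Mirg, Igf2 and Grb10 hold no TGACGTCA. No promoter of Rtl1 was examined, and whether any marked motif has a part in the levels seen was not tested. H19 and Cdkn1c were not matched to an entry.

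H19, a maternally expressed noncoding RNA of chromosome 7 (142575529 to 142578143, minus strand), was the most abundant member, also per length. It had 444, 381 and 406 CPM in injured libraries, against 329, 300 and 204 CPM in non-injured libraries. The groups averaged 411 ± 31.7 and 278 ± 65.3 CPM and did not overlap, with non-injured library C the lowest. The log2 fold change was 0.56 ± 0.17, with an adjusted p of 0.147 by edgeR and of 0.0121 with the letter block. Ratios within letters A, B and C were 1.35, 1.27 and 1.99, so the C pair gave the largest difference, and without that pair the blocked edgeR test no longer called H19 (adjusted p 0.0988). H19 is among the genes of high count: of the 603 genes with a mean of at least 1000 counts, 5.47% were higher without overlap, and their median log2 fold change was -0.14.

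Igf2, the paternally expressed growth factor of the same domain, lies at 142650766 to 142666816 on the minus strand and shares enhancers with H19. It had 14.5, 14.8 and 9.40 CPM in injured libraries, against 11, 12.4 and 7.36 CPM in non-injured libraries. The groups overlapped, but the injured library was the higher of the pair in all 3 letters, by ratios of 1.33, 1.20 and 1.28. An injured library above its partner in all 3 letters was found in 4 of the 7 tested members and in 21.6% of all genes. Igf2 had a log2 fold change of 0.33 ± 0.25 and did not pass (adjusted p 0.574 by edgeR and 0.310 with the letter block). The rows of Gm49394 on the same strand and Igf2os on the other overlap Igf2, and how reads were shared between them is not given. H19 held 30.5, 25.8 and 43.2 counts per Igf2 count in injured libraries, against 29.9, 24.2 and 27.7 in non-injured libraries, with p = 0.4 by the exact permutation test, for which 0.1 is the smallest value.

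Around H19, 8 other rows lie within 100 kb and 7 of them were tested. Nctc1, a noncoding RNA that starts 19.5 kb downstream of the H19 start at a muscle enhancer of this domain, had 272, 414 and 405 CPM in injured libraries, against 343, 649 and 617 CPM in non-injured libraries. Letter A was lowest in both groups, the groups overlapped, and the injured library was the lower in each pair. Nctc1 gave a log2 fold change of -0.56 ± 0.23, with an adjusted p of 0.271 by edgeR and of 0.00980 with the letter block, so that in the blocked fit Nctc1 fell while H19 rose. Without the B pair the blocked edgeR adjusted p of Nctc1 was 0.0606. Igf2os had 3.52, 4.58 and 2.42 CPM in injured libraries, against 1.40, 0.689 and 1.20 CPM in non-injured libraries (log2 fold change 1.67 ± 0.47, edgeR adjusted p 0.115 and 0.0608 with the block). Mrpl23, Gm33148, Prr33, Tnnt3 and Lsp1 passed neither fit, with log2 fold changes from -0.24 (Prr33) to 0.63 (Gm33148).

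**Figure D3:**
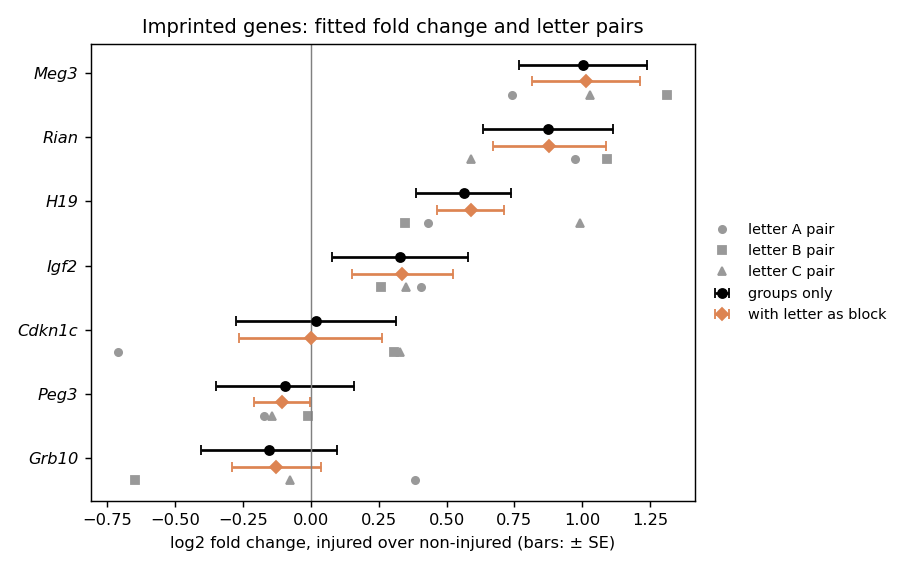
Log2 fold change of injured over non-injured quadriceps (horizontal axis) of the 7 tested genes, fitted on the groups alone (black circles) and with the letter as a block (orange diamonds), with bars of ± SE; grey markers are the 3 letter pairs. Meg3, Rian, H19 and Igf2 lie to the right of 0 in all 3 pairs, Peg3 to the left in all 3, and Cdkn1c and Grb10 on both sides.

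Cdkn1c codes for p57Kip2, a cyclin-dependent kinase inhibitor made from the maternal copy (chromosome 7, 143458339 to 143461050, minus strand). It had 4.13, 8.10 and 6.55 CPM in injured libraries, against 6.76, 6.54 and 5.22 CPM in non-injured libraries. The injured libraries spanned the non-injured ones, with the A pair at a ratio of 0.612 and the B and C pairs at 1.24 and 1.25. The log2 fold change was 0.02 ± 0.29 (edgeR, adjusted p = 0.982), and the sign of so small a value changed between settings. Near Cdkn1c, Nap1l4 (log2 fold change -0.11), Cars (-0.04) and the snoRNA row Gm23297 (-0.70, adjusted p 0.213) did not pass by edgeR. Gm23297 was lower without overlap, at 5.05, 6.72 and 9.26 CPM in injured libraries, against 10.6, 10.3 and 13.5 CPM in non-injured libraries. Its edgeR adjusted p was 0.0573 with the letter block. Kcnq1 had too few counts.

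Peg3, a paternally expressed zinc-finger gene (chromosome 7, 6703892 to 6730431, minus strand), had 98.3, 195 and 177 CPM in injured libraries, against 111, 196 and 196 CPM in non-injured libraries. Both letter A libraries were low and both B libraries were nearly equal. The injured library was the lower of each pair, a pattern found in 1 of the 7 members and in 21.9% of all genes. The log2 fold change was -0.10 ± 0.25 (adjusted p 0.898 by edgeR and 0.598 with the letter block). Usp29, which starts 0.147 kb away on the other strand and is paternally expressed too, had 3.67, 6.88 and 3.56 CPM in injured libraries, against 2.30, 2.64 and 1.34 CPM in non-injured libraries. Its groups did not overlap, with a log2 fold change of 1.15 ± 0.41, but it passed neither fit (adjusted p 0.208 by edgeR and 0.0794 with the block). Zim1 gave -0.05 ± 0.29.

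Grb10 codes for an adaptor that binds the insulin and IGF1 receptors and dampens their signal (chromosome 11, 11930508 to 12038683, minus strand). It had 28.3, 27.1 and 42.1 CPM in injured libraries, against 21.7, 42.4 and 44.4 CPM in non-injured libraries. Library A was low in both groups, and library B was low in injured muscle only. For Grb10 the log2 fold change was -0.15 ± 0.25 (adjusted p 0.818 by edgeR and 0.704 with the letter block). No other row lies within 100 kb of Grb10.

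Set per length, the members spanned a wide range. In CPM per kilobase of the longest transcript, averaged over all 6 libraries, H19 stood at 151 ± 37.6, Peg3 at 18.6 ± 5.21, Grb10 at 6.78 ± 1.93 and Cdkn1c at 3.27 ± 0.72. Igf2 followed at 2.45 ± 0.62, Rian at 1.21 ± 0.44, Meg3 at 0.760 ± 0.30 and Mirg at 0.264 ± 0.10 (SD, n = 6). The single libraries of H19, Peg3, Grb10 and Cdkn1c did not overlap from 1 gene to the next in this order, while each neighbouring pair from Cdkn1c to Mirg overlapped. With all annotated exons as the length, Rian stood at 0.539, Mirg at 0.138, Grb10 at 3.78 and Peg3 at 12.2, each over 1.5 times lower, and Meg3, at 0.611, then stood above Rian. The libraries of Grb10 (2.39 to 4.89) and Cdkn1c (2.03 to 3.97) then overlapped. Those of Igf2 and Rian, and of Meg3 and Mirg, overlapped per longest transcript but not with all annotated exons. These overlaps and the order of Meg3 and Rian thus depend on the length used.

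Over the wider list of imprinted genes, values lay on both sides of 0. Of 55 other imprinted genes listed, 39 were in the table and 37 were tested. By edgeR 0 passed (8 at an unadjusted p under 0.05), 2 did by DESeq2 (Kcnq1ot1 and Kcnk9) and 0 by limma-voom, and the median log2 fold change was 0.00, the same as over all genes. With the letter block 2 rose and 4 fell, and these 6 are named because they passed that fit. Over all genes 5.86% passed the blocked fit in either direction, 2.03% passed by DESeq2 and 15.4% had an unadjusted p under 0.05. Rtl1 is described above. Kcnk9, a potassium channel gene, had 3.37, 6.42 and 2.85 CPM in injured libraries, against 0.765, 1.03 and 1.20 CPM in non-injured libraries (log2 fold change 2.05 ± 0.47, adjusted p 0.0674 by edgeR and 0.0198 with the block).

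Kcnq1ot1, the paternally expressed antisense RNA that silences Cdkn1c on its own chromosome, lies opposite Kcnq1. It had 560, 549 and 585 CPM in injured libraries, against 749, 776 and 852 CPM in non-injured libraries. All 3 injured libraries were lower and close to each other, with a log2 fold change of -0.49 ± 0.13 (adjusted p 0.0967 by edgeR and 0.0128 with the block). Asb4, an ankyrin repeat gene of the Peg10 cluster, averaged 15.0 ± 3.33 CPM in injured and 24.8 ± 3.34 CPM in non-injured libraries (log2 fold change -0.72, adjusted p 0.0996 by edgeR and 0.0157 with the block). Ube3a, a ubiquitin ligase imprinted in neurons, gave -0.43 (adjusted p 0.195 by edgeR and 0.0243 with the block). Slc38a4, an amino acid transporter, gave -0.44 (adjusted p 0.266 by edgeR and 0.0257 with the block). Without the letter B pair the blocked edgeR test no longer called Kcnk9 (adjusted p 0.179), Kcnq1ot1 (0.0732), Asb4 (0.104), Ube3a (0.167) or Slc38a4 (0.194). Leaving out the A pair ended the call of Kcnk9 too (0.0561), and leaving out the C pair those of Ube3a (0.0560) and Slc38a4 (0.0594).

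**Figure D4:**
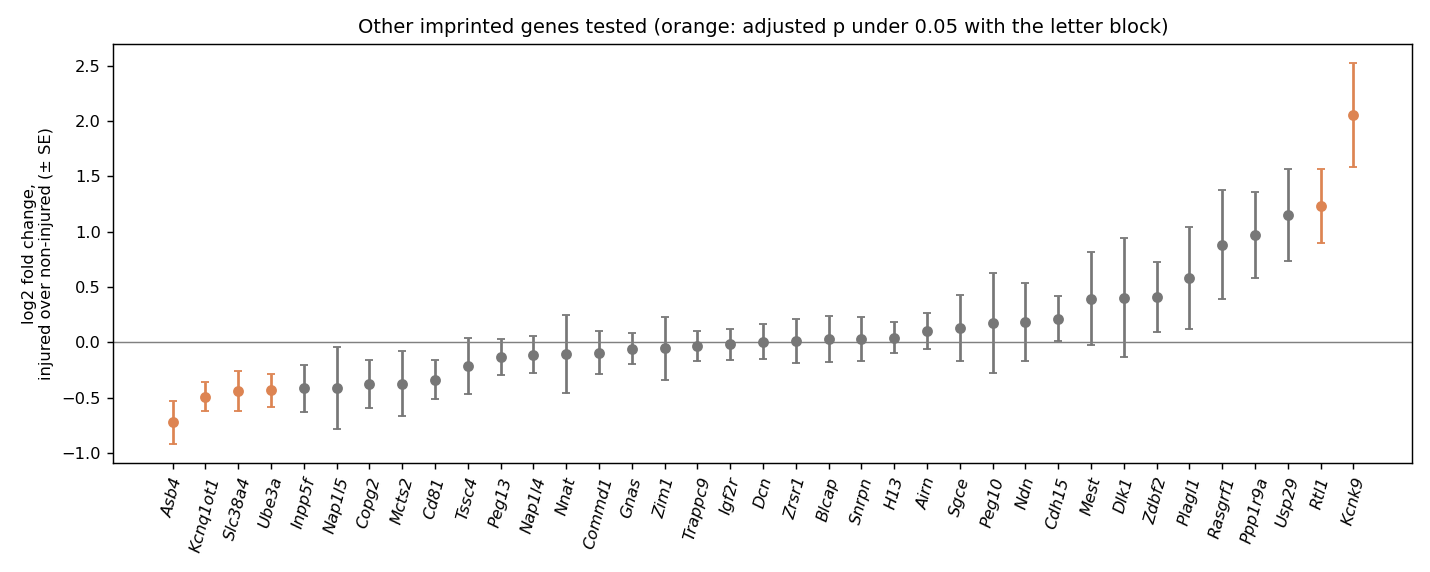
Log2 fold change of injured over non-injured quadriceps, with SE, of the 37 other imprinted genes tested, in order of size; orange points had an adjusted p under 0.05 with the letter block. The points lie on both sides of 0, with Kcnk9 and Rtl1 at the upper end and Asb4 and Kcnq1ot1 at the lower end.

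Genes that act with Igf2 and Grb10 gave no call by edgeR. Of 12 insulin and IGF receptors, adaptors and IGF2 mRNA-binding proteins, 10 were tested, 0 passed by edgeR, DESeq2 or limma-voom, 3 had an unadjusted p under 0.05, and the median log2 fold change was -0.02. With the letter block 1 rose, Igf2bp2, and 1 fell, Irs2. Of all genes, 15.4% had an unadjusted p under 0.05 and 5.86% passed the blocked fit in either direction. Igf2bp2, which binds Igf2 and other mRNAs, had 7.96, 5.81 and 4.13 CPM in injured libraries, against 2.55, 3.21 and 2.01 CPM in non-injured libraries (log2 fold change 1.19 ± 0.36, adjusted p 0.136 by edgeR and 0.0458 with the block). Irs2, a docking protein of the insulin receptor, gave -0.43 ± 0.20 (adjusted p 0.340 by edgeR and 0.0400 with the block). The blocked call of Igf2bp2 was lost whichever pair was left out (edgeR adjusted p 0.0652 to 0.225), and that of Irs2 without the A pair (0.102) or the B pair (0.218). Insr, the insulin receptor itself, averaged 152 ± 7.34 CPM in injured and 193 ± 10.4 CPM in non-injured libraries and passed neither fit (adjusted p 0.239 by edgeR and 0.0552 with the block). Igf2r, which clears IGF2 and is itself imprinted, was at 108 ± 3.42 CPM in injured and 109 ± 12.2 CPM in non-injured libraries.

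Among the other CDK inhibitors and G1 regulators, 12 of 15 were tested and 1 rose by edgeR, which called 0.746% of all genes. This was Cdk6, a kinase of the G1 phase that CDK inhibitors hold in check. It had 13.3, 6.88 and 4.56 CPM in injured libraries, against 2.30, 1.72 and 1.47 CPM in non-injured libraries (log2 fold change 2.16 ± 0.42, adjusted p 0.0367 by edgeR). By edgeR this call was lost without injured library A (adjusted p 0.0859) or B (0.0702), or without non-injured library B (0.1) or C (0.191); the log2 fold change stayed between 1.62 and 2.44. The call was also lost without both letter A libraries (edgeR, adjusted p 0.0582) and with limma-voom (adjusted p 0.0988). Of 19 alternative settings Cdk6 passed in 13, DESeq2 and the letter block among them. Ccnd3, cyclin D3, also passed with the block, at 7.71 ± 0.24 CPM in injured and 3.93 ± 0.24 CPM in non-injured libraries (adjusted p 0.0947 by edgeR and 0.0416 with the block, and 0.104 to 0.146 when any pair was left out). Cdkn1a, which codes for p21, ranged widely within each group, with a log2 fold change of -0.16 ± 0.43 (edgeR, adjusted p = 0.902). With the letter block 2 of the 12 passed, Cdk6 and Ccnd3, both higher, against 3.21% of all genes called as higher. Of the 12, 6 had an unadjusted p under 0.05, against 15.4% of all genes, and 5 were higher without overlap, against 11.9%. Another 1, Ccne2, was lower without overlap (log2 fold change -1.02), against 9.57% of all genes. The median log2 fold change over the 12 was 0.45. Of 10 genes that keep imprints, 7 were tested and 0 passed by edgeR in either fit or by DESeq2 or limma-voom, although 1 had an unadjusted p under 0.05, and the median was -0.10. Those with the smallest p were Dnmt1, the maintenance methyltransferase (log2 fold change 0.69 ± 0.30, edgeR adjusted p 0.292), and Zfp445, a zinc-finger protein that guards imprints (-0.28 ± 0.13, edgeR adjusted p 0.331).

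By likeness over the 6 libraries, the genes nearest to Meg3 among those with a mean of at least 100 counts were Ahnak2 (r = 0.994 on log2 CPM), Eda2r (0.989) and Svep1 (0.984). Eda2r, a receptor of the TNF family, had 45.8, 35.5 and 44.6 CPM in injured libraries, against 23.7, 14 and 24.9 CPM in non-injured libraries. It passed by edgeR (log2 fold change 1.01 ± 0.21, adjusted p 0.0454), but the edgeR call was lost whichever injured library was left out (adjusted p 0.0745, 0.0616 and 0.131 without A, B and C) and without non-injured B (0.148) or C (0.156). Of 20 alternative settings Eda2r passed in 14, DESeq2 and the letter block among them. Nearest to H19 were Golga3 (0.992), Akr1a1 (0.986) and Etv3 (0.985), of which none passed by edgeR (log2 fold changes 0.17, 0.19 and 0.31). Nearest to Peg3 were Zmiz1os1 (0.993), Ralgapa2 (0.993) and Hnrnpm (0.992), which were low in letter A of both groups as Peg3 was. With 6 libraries that share group and letter, high values of r are common: 1 gene in 100 of those compared reached 0.898 with Meg3, 0.909 with H19 and 0.955 with Peg3.

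Markers of cell types moved with the groups too, and their part in the results was not tested. Summed CPM of the 10 macrophage markers ran from 84.5 to 156 in injured and from 34.4 to 40.9 in non-injured libraries. By edgeR 3 of the 9 tested passed, against 0.746% of all genes. The 5 proliferation markers in the table ran from 14.5 to 26.6 CPM in injured and from 3.32 to 4.94 CPM in non-injured libraries. Markers of regenerating fibres, in which H19 is known to be made, summed to 38.9 to 50.6 CPM in injured and 27.3 to 33.2 CPM in non-injured libraries over the 4 of 6 in the table; Mymk and Mymx had no row among those analysed. Satellite cell markers, 7 of 8 in the table, overlapped, at 84.2 to 121 CPM in injured and 83.3 to 117 CPM in non-injured libraries. Markers of fibro-adipogenic progenitors, all 10 in the table, summed to 541 to 642 CPM in injured and 634 to 726 CPM in non-injured libraries, but that sum was mostly Gsn (390 CPM in injured and 482 CPM in non-injured libraries on average). The other 9, a sum taken after the values were seen, ran from 202 to 235 CPM in injured and from 167 to 194 CPM in non-injured libraries. Of the 10 markers 9 had a log2 fold change above 0, and the median was 0.28. An unadjusted p under 0.05 was found in 3, against 15.4% of all genes. With the block 1, Cxcl14, passed, against 5.86% of all genes. The 5 adipocyte markers were lower, at 19.5 to 27.0 CPM in injured and 35.8 to 57.7 CPM in non-injured libraries. The 3 tendon markers in the table, of 5 listed, ran from 49.2 to 56.7 CPM in injured and from 34.4 to 42.9 CPM in non-injured libraries. Tnmd and Mkx had no row among those analysed. The largest part of that sum was Thbs4 (32.5 CPM in injured and 18.5 CPM in non-injured libraries on average). Thbs4 and Scx were higher without overlap (log2 fold changes 0.81 and 0.90), while Fmod overlapped and leaned the other way (-0.22). Summed CPM of endothelial, pericyte and Schwann cell markers overlapped between the groups. Of the 5 pericyte and smooth muscle markers 1, Cspg4, was higher without overlap (log2 fold change 0.62, edgeR adjusted p 0.180), against 11.9% of all genes. The 8 muscle fibre markers summed to 166662 to 173543 CPM in injured and 179921 to 188781 CPM in non-injured libraries, so the label of skeletal muscle held in all 6. That sum was mostly Ttn (134025 CPM in injured and 143548 CPM in non-injured libraries on average), the only 1 of the 8 without overlap. Meg3 and Rian, at a mean of 50 to 100 counts, stand among 2737 genes with a median log2 fold change of 0.00, of which 9.17% were higher without overlap.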

How the data were processed

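RNA of 6 mouse quadriceps libraries (3 injured, 3 non-injured) was analysed from 1 table of estimated counts per gene that the authors deposited, in which 72.2% to 74.5% of a library's entries are exactly whole and 75.8% to 77.5% are within 0.01 of a whole number. The submitters' processing notes name STAR 2.7.8a, Partek, DESeq2 and the builds mm10 and hg19. How reads were assigned to genes, with or without strand, is not given in the sources used here. Positions are on mm10. Library totals were 6.45 to 8.75 M counts. Estimated counts were rounded, filtered by edgeR's filterByExpr (16095 of 20015 genes), scaled by TMM and tested two-sided with edgeR 4.0.16 (R 4.3.3), quasi-likelihood F test, with Benjamini-Hochberg adjustment over all tested genes. Standard errors are the size of the log2 fold change divided by the root of F. The code was tested on simulated data. CPM use the TMM factors. DESeq2 1.42.0, limma 3.58.1 (voom), other scalings, filters and left-out libraries were alternatives.

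The letters were taken to pair the libraries from these same counts, as the labels do not say what a letter marks. Same-letter deviations from the group means correlated over 16095 genes at 0.316 (A), 0.208 (B) and 0.113 (C), all above 0.1. For injured A, B and C, the highest correlation with a non-injured library of another letter was -0.158, 0.0643 and 0.0197. The members and lists were chosen with earlier results of these data known. Named genes were the members, the rows near them, list members past a test (otherwise the 2 with the smallest p) and the 3 genes most like Meg3, H19 and Peg3. Genes named only because they passed with the letter block were chosen after their values were seen.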

Additional observations from a re-analysis of the deposited data

How the results depend on the processing

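Meg3, Rian, H19 and Igf2 kept their direction in all 20 alternative settings, with log2 fold changes of 0.78 to 1.15, 0.68 to 1.01, 0.36 to 0.72 and 0.12 to 0.49. Meg3 passed an adjusted p of 0.05 in 8 of them (edgeR, DESeq2 and limma-voom together ranged over adjusted p 0.00791 to 0.235), H19 in 5, Rian in 3 and Igf2 in 0. Members past the test numbered 1 with DESeq2, 3 with the replicate block, 1 without both letter A libraries, 2 with the block and any letter pair left out, 2 with DESeq2 and the block and 3 with limma-voom and the block. All genes past the test numbered 120 at first, 327 with DESeq2, 59 with limma-voom, 943 with the replicate block, 297 without both letter A libraries, 20 to 129 with 1 library left out in turn, 680, 596 and 740 with the block and without the letter A, B or C pair, 408 with DESeq2 and the block, and 1016 with limma-voom and the block. The fits with the block that left out a pair or used another tool were chosen after seeing the data. The cause of these differences was not tested.

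Signs turned for Cdkn1c, Peg3, Grb10 and the Mirg to Meg3 difference. Cdkn1c gave -0.037 with no low-count filter, -0.024 with limma-voom, -0.00056 with the replicate block, -0.17 and -0.18 with the block without the letter B or C pair, -0.022 with DESeq2 and the block, and -0.21 to 0.23 with 1 library left out. Peg3 gave -0.34 to 0.14 with 1 library left out, and Grb10 0.14 with the block without the letter B pair. The Mirg to Meg3 difference, -0.29 over all 6 libraries, ran from -0.81 to 0.13 with 1 library left out. Upper quartile scaling moved the median of all genes by 0.05. Depth limits Mirg, Dlk1 and Rtl1, with under 30 counts per library on average.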
